A study of Mus musculus with 31 samples.

Results

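Mammary transcript levels at parturition were compared between mice with 1 allele each of Stat5a and Stat5b (AB) and wild-type mice with 2 alleles of each gene (AABB). A gene entered the comparison when its scaled FPKM (fragments per transcript length and per number of mapped fragments, scaled between genotypes) was 1 or more in either genotype, and 12718 of the 22609 genes in the table met this rule. Of the 9891 genes left out, 4838 were listed at 0 in both genotypes. Hexim2 (1.00 in AB and 0.797 in AABB) and Tmem140 (1.00 and 0.523) lay just inside the limit. Brsk1 (0.998 and 0.368) and Jrk (0.999 and 0.425) lay just outside.

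The AB mice were Stat5ab+/null: 1 chromosome lacked both genes, in all cells and not in the epithelium alone. The AABB samples are labelled wild-type, and the series text places Stat5ab fl/fl mice without Cre under the same name. The other genotypes named below were Null (Stat5ab fl/fl;MMTV-Cre, where Cre of the MMTV-Cre line A removed both genes in epithelium), B (a single Stat5b allele), A (a single Stat5a allele) and BB (Stat5a-/-, with 2 Stat5b alleles). All mice shared a mixed 129SV::FVB/N::C57BL/6 background, tissue was taken without lymph nodes within 12 hours of delivery, and the labels give no age. At parturition the labels list 2 samples per genotype and 3 for B, 13 of 31 samples in the series. The deposited table holds a single mean column per genotype, so the values below carry no SD, the spread between mice is unknown, and differences are described without p-values. Read depth is unknown. A gene is called higher or lower when the ratio of AB to AABB reached 2-fold on the log2(scaled FPKM + 1) scale, a scale that understates differences of low genes. In whole tissue, fewer cells of a type and less RNA per cell cannot be told apart.

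STAT5A and STAT5B are closely related transcription factors that JAK2 phosphorylates when prolactin or growth hormone binds its receptor. The phosphorylated proteins form dimers, enter the nucleus and bind DNA at sites with the letters TTCNNNGAA. In the mammary gland this pathway drives the formation of milk-secreting alveoli in pregnancy and the transcription of milk protein genes around birth.

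Of the 12718 genes, 1337 were at least 2-fold higher in AB than in AABB (10.5%) and 768 were at least 2-fold lower (6.04%). At 4-fold, 185 genes were higher (1.45%) and 113 lower (0.889%). The median log2 ratio was 0.02, the quartiles were −0.38 and 0.51, and 83.4% of the genes lay within 2-fold. The lower genes had a median level of 22.8 scaled FPKM in AABB and 7.32 in AB, whereas the higher genes had medians of 3.00 and 10.4. These medians follow in part from the ratio that defines both sets. Without scaling, 1773 genes were higher and 479 lower, so the share of higher genes among those called was 78.7% in place of 63.5%, and the median of all genes shifted by 0.203 toward AB. Where a list's median changes sign or passes 2-fold with that shift, both values are given.

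**Figure D1:**
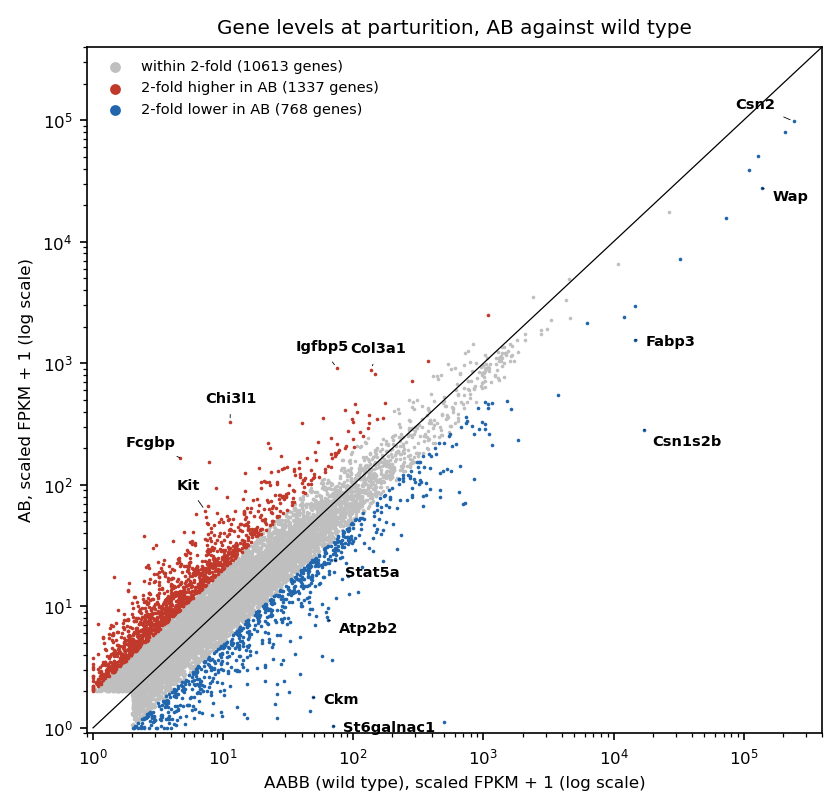
Scaled FPKM + 1 of each of the 12718 genes in AB (vertical axis) against AABB (horizontal axis), both on log scales, with genes at least 2-fold higher in red (1337), at least 2-fold lower in blue (768) and the rest in grey (10613). Casein, Wap and Fabp3 points at the upper right lie below the diagonal of equal levels, and Fcgbp, Chi3l1, Igfbp5 and Col3a1 lie above it.

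Stat5a and Stat5b were read first, as a check of the genotype. Stat5a stood at 22.9 scaled FPKM in AB and 70.8 in AABB (log2 ratio −1.59), which is 32.4% of wild type. In the other genotypes it stood at 4.30 in BB, 16.5 in A, 8.60 in B and 6.96 in Null. Stat5b stood at 11.2 in AB and 25.4 in AABB (log2 ratio −1.11), 44.3% of wild type, and at 12.6 in BB, 12.6 in B, 10.3 in A and 7.65 in Null. Both transcripts were thus below the AABB level in the AB column, Stat5a further than Stat5b. Without scaling the Stat5b log2 ratio was −0.88, within 2-fold. Among AB, BB, B and A the Stat5b level lay between 10.3 and 12.6, although these genotypes differ in the number of Stat5b alleles. At day 6 of pregnancy Stat5a was 13.4 in AB and 33.6 in AABB, and Stat5b was 11.7 and 16.7 (log2 ratio −0.48).

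The letters of the STAT5 site are shown for milk protein genes and for Cish, a feedback inhibitor of cytokine receptors, because these genes carry TTCNNNGAA close to the transcription start and have different ratios in AB. The stretches are from RefSeq promoters on GRCm38.p6, of 100 bases each, 5′ to 3′ along the gene, and capitals mark TTCNNNGAA, which is its own reverse complement, so that a single search covers both strands. They cover chr5:87666058-87666157 (plus strand) for Csn1s1, chr5:87699476-87699575 (minus strand) for Csn2, chr15:103565162-103565261 (minus strand) for Glycam1 and chr9:107296589-107296688 (plus strand) for Cish.
Csn1s1: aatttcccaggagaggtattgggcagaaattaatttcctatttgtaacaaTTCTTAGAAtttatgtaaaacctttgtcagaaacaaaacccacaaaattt
Csn2: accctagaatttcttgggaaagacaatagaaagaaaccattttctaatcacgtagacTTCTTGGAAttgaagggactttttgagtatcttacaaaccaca
Glycam1: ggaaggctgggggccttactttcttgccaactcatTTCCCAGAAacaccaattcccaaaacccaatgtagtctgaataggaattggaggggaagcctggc
Cish: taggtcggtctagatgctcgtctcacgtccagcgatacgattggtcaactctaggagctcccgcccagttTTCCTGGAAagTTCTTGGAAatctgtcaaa

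The match begins 100 bases before the start of Csn1s1, 93 before that of Csn2 and 145 before that of Glycam1, and Cish has 2 matches, of which the first begins at the first transcribed base. In windows from 250 bases before to 50 after the start, 5 of 14 milk protein genes with a RefSeq promoter had a match (35.7%): Csn1s1, Csn1s2a, Csn2, Glycam1 and Pigr. Of all 32851 promoter windows of that length, 2726 (8.30%) had one, and counted by gene the share was 2582 of 27025 (9.55%). Among the compared genes with a promoter in the table, the share was 829 of 10004 (8.29%), with 56 of 551 (10.2%) for lower genes and 74 of 974 (7.60%) for higher genes. A match is a description of the letters and shows no binding.

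Milk protein transcripts were present at high levels in AB and were below the wild-type level for most of the list. Of 16 milk protein genes, all compared, 11 were lower, 5 lay within 2-fold and none was higher, and the median log2 ratio was −1.36 beside 0.02 over all genes. Together they held 46.3% of all FPKM in AB, 67.9% in AABB, 43.4% in BB, 5.05% in A, 2.05% in B and 0.785% in Null. The list's share in AB was thus below that in AABB, near that in BB and above those of the genotypes with a single allele.

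The caseins did not keep a common ratio. Csn2, which encodes β-casein, the most abundant milk protein transcript here, stood at 97643 scaled FPKM in AB and 243805 in AABB (40.0% of wild type). Csn1s2a stood at 79476 and 206614 (38.5%), and Csn1s1, which encodes α-S1-casein, at 38716 and 110787 (34.9%). These calcium-sensitive caseins lay at similar shares of the wild-type level.
Csn3, which encodes the κ-casein that stabilises the micelle surface, stood lower, at 15544 in AB and 72859 in AABB (21.3%). Csn1s2b, a further calcium-sensitive casein, had the largest difference of the list, with 283.6 in AB and 17144 in AABB (log2 ratio −5.91, 1.65%). Its level was 28.2 in BB, 10.9 in Null, 1.66 in A and 0.246 in B. It was the only milk protein gene of the list under 10% of wild type in AB.

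The whey and other secreted proteins also spread widely. Wap, which encodes whey acidic protein, stood at 27599 in AB and 138276 in AABB (log2 ratio −2.32, 20.0%), and at 17011 in BB. Lao1, an L-amino acid oxidase secreted into milk, stood at 2405 and 12068 (19.9%). Expi (named Wfdc18 in current RefSeq), a secreted protein of the Wap family, stood at 2974 and 14646 (20.3%). Spp1, which encodes the phosphoprotein osteopontin, stood at 7198 and 32349.8 (22.2%). These genes lay near the level of Csn3 relative to wild type.
Glycam1, a secreted mucin-like protein, stood at 50958 in AB and 129120.0 in AABB (39.5%), and at 28455 in BB. Pigr, the receptor that carries immunoglobulin A across the epithelium, stood at 177 and 431 (41.1%).

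The 5 milk protein genes within 2-fold were Muc15, Lalba, Trf, Ltf and Wfdc12. Lalba, which encodes the α-lactalbumin subunit of lactose synthase, stood at 6598 in AB and 10866 in AABB (60.7%). Trf, the iron carrier transferrin, stood at 17448 and 26568 (65.7%). Ltf, the antimicrobial iron binder lactoferrin, stood at 1166 in AB and 1034 in AABB (log2 ratio 0.17), and at 419 in BB. Wfdc12 stood at 49.6 and 26.7 (log2 ratio 0.87). Ltf and Wfdc12 were the members of the list with an AB level above the wild-type level.

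**Figure D2:**
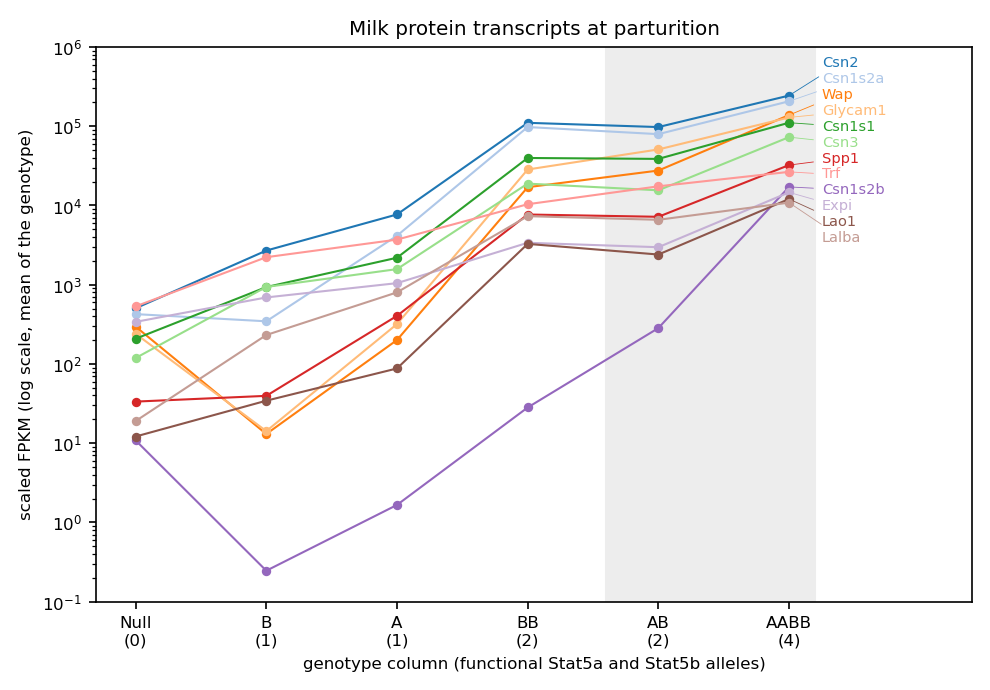
Scaled FPKM (log axis) of the 12 milk protein genes with the highest AABB level in each genotype column, ordered by the number of functional Stat5a and Stat5b alleles given in brackets; each point is the mean of a genotype, and AB and AABB are shaded. From AABB to AB, Csn2 passes from 243805 to 97643 and Csn1s2b from 17144 to 283.6, and the other lines are less steep than that of Csn1s2b.

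Among genes of milk fat formation, most of those that make fatty acids were lower in AB, and fewer of those for uptake, assembly and droplets. In the alveolar cell, citrate leaves the mitochondrion and is converted to acetyl-CoA, fatty acids are built from it, and droplets are coated by adipophilin and butyrophilin before release. Of 18 fatty acid synthesis genes, 15 were lower, none was higher and all 18 had a ratio below 0, with a median of −1.64. Slc25a1, the mitochondrial citrate carrier, stood at 111 in AB and 846 in AABB (log2 ratio −2.92). Thrsp, a promoter of lipogenesis also called Spot14, stood at 549.7 and 3736 (−2.76). Olah, the thioesterase that ends chain growth early and so gives the medium-chain acids of milk, stood at 212 and 1156 (−2.44). Each was below 20% of the wild-type level.
Insig1 (65.8 in AB and 345 in AABB), Elovl5 (81.0 and 363) and Me1 (129 and 487) followed. The core enzymes stood closer to wild type. Acly, ATP citrate lyase, stood at 287 in AB and 931 in AABB, Acaca, acetyl-CoA carboxylase, at 92.7 and 279, and Fasn, fatty acid synthase, at 304 and 816 (log2 ratios −1.70, −1.58 and −1.42). Srebf1, the transcription factor that controls many of these genes, stood at 123 and 195 (−0.66), within 2-fold. Without scaling 13 of the 18 were lower.

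White adipocytes express many of the same enzymes, and white adipocyte markers lay on the other side: 9 of 15 were higher in AB, none was lower, and their summed level was 8978 scaled FPKM in AB and 5020 in AABB. Their part in the lipid gene levels was not tested. In Null, where the summed adipocyte level was 31898, Fasn (909) and Scd1 (7298) stood above their AABB levels (816 and 6291), whereas Olah stood at 1.10. At day 6 of pregnancy, 4 of the 18 fatty acid synthesis genes were lower in AB and the median log2 ratio was −0.04.

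Of 14 genes for fatty acid uptake and triglyceride assembly, 5 were lower and none higher (median −0.81), and without scaling 3 were lower. Fabp3, a cytosolic fatty acid carrier, stood at 1556 in AB and 14646 in AABB (log2 ratio −3.23, 10.6% of wild type), at 2266 in BB and at 22.4 or less in the other genotypes. Its deposited value is identical to that of Expi in the AABB column and to that of Rpl10 in the AB column. Lpl, the lipase that releases fatty acids from blood lipoproteins, stood at 489.7 in AB and 1528 in AABB (−1.64). Lpin1, Acsl1 and Acsl4, a phosphatidate phosphatase and 2 acyl-CoA synthetases, had log2 ratios of −1.40, −1.19 and −1.11. The enzymes of the last step, Dgat1 (−0.43) and Dgat2 (0.67), and the first acyltransferase of the pathway, Gpam (0.02), lay within 2-fold.

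Of 10 milk fat globule and lipid droplet genes, Fabp3 and Cidea were lower, the other 8 lay within 2-fold, and the median was −0.77. Cidea, a lipid droplet protein also used as a brown adipocyte marker, stood at 231 in AB and 1828 in AABB (−2.98). Xdh and Btn1a1, the partners that join the droplet to the apical membrane, stood at 305 against 562 (−0.88) and 941 against 1389 (−0.56). Plin2, adipophilin, stood at 723 against 1316 (−0.86), and Mfge8, a glycoprotein of the globule membrane, at 1913 against 3065 (−0.68). The envelope genes therefore stood nearer to wild type than Fabp3 and Cidea.

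Of 20 compared cholesterol synthesis genes (21 in the list, Hmgcs1 being listed at 0 in every column), 7 were lower and none higher, with a median of −0.94; without scaling 1 was lower. The 7 were Tm7sf2, Lss, Nsdhl, Pmvk, Mvd, Hsd17b7 and Cyp51, with log2 ratios between −1.41 and −1.08. Srebf2, the transcription factor of the pathway, stood at 34.6 in AB and 21.0 in AABB (0.69). The called genes belong to the mevalonate steps (Pmvk and Mvd) and to the sterol steps.

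Of 12 genes for lactose synthesis and glucose supply, 4 were lower and none higher (median −0.79), and without scaling 1 was lower. B4galt1, the galactosyltransferase that joins with α-lactalbumin to form lactose synthase, stood at 214 in AB and 619 in AABB (log2 ratio −1.53). Ugp2 and Hk2, which act on the way from glucose to UDP-glucose, had log2 ratios of −1.07 and −1.04, and Slc2a1, the glucose transporter GLUT1, stood at 46.2 and 95.5 (−1.03). The hexokinase of most tissues, Hk1, stood at 40.1 and 21.6 (0.86).

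Transporters that load milk with calcium and zinc included some of the larger differences. Of 12 compared genes of calcium, zinc and serotonin handling (13 in the list), 8 were lower and 3 higher, and the median was −1.17. The median lay between −1 and 0, not past −1, without scaling (−0.93). Atp2b2, the apical pump that secretes calcium into milk, stood at 6.67 in AB and 63.3 in AABB (log2 ratio −3.07), 1.25 in BB and 0.114 in Null. Slc30a2, a zinc transporter of secretory vesicles, stood at 4.15 and 31.8 (−2.67). Pthlh, the hormone that mobilises maternal bone calcium, stood at 4.37 and 21.4 (−2.06).
Atp2c2 (75.7 in AB and 191 in AABB) and Atp2c1 (42.6 and 88.6), calcium pumps of the Golgi, were lower as well, as was Orai1, the plasma membrane calcium channel (57.6 and 118). The higher genes were Stim1 (13.1 and 5.93), Atp2b1 (27.8 and 11.8) and Tph1 (13.9 and 3.06). Stim1 senses calcium in the endoplasmic reticulum, Atp2b1 is a calcium pump of most cells, and Tph1 is the rate-limiting enzyme of peripheral serotonin synthesis. Tph1 stood at 33.7 in BB and 0.650 in Null.

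Genes of the secretory machinery did not follow the milk genes. Of 30 genes for the secretory pathway and unfolded protein response, 27 lay within 2-fold, 2 were lower and 1 was higher. The median was −0.06 (4 higher and 0.17 without scaling). The shares over all genes were 6.04% lower and 10.5% higher, so the count of lower genes lies near the general share. Ssr4, a subunit of the complex beside the translocon, stood at 261 in AB and 848 in AABB (log2 ratio −1.70), and Atf4, the stress-response transcription factor, at 111 and 290 (−1.38). Herpud1, a component of endoplasmic-reticulum-associated degradation, was the higher gene, at 49.6 and 22.9 (1.08). Xbp1, the transcription factor of secretory cells, stood at 516 and 782 (−0.60), and the chaperone Hspa5 at 675 and 622 (0.12). Chaperones and protein disulfide isomerases with a ratio above 0 included Pdia4 (0.96), Hyou1 (0.90), Pdia3 (0.77) and Calr (0.59), whereas translocon-associated Ssr2 (−0.93), Sec61g (−0.89) and Sec61b (−0.74) lay below 0, all within 2-fold.

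Of 13 compared amino acid transporters (14 in the list), 1 was lower, 2 were higher and the median was −0.16 (0.06 without scaling). Such counts lie near the shares over all genes, 6.04% lower and 10.5% higher. Slc7a4 stood at 9.95 in AB and 30.8 in AABB. Slc1a5, a glutamine carrier, stood at 89.9 and 33.7 (log2 ratio 1.39), and Slc43a1 had a log2 ratio of 1.27. The subunits of the large neutral amino acid carrier, Slc7a5 (60.9 and 73.0) and Slc3a2 (85.8 and 81.3), lay within 2-fold, whereas Slc7a5 stood at 23.1 in BB and 6.15 in Null.

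Of 18 compared genes of the prolactin pathway (20 in the list), 2 were lower and 3 higher, with a median of 0.36. These counts lie near the shares over all genes (6.04% lower and 10.5% higher). Id2, an inhibitor of helix-loop-helix factors needed for alveolar growth, stood at 138 in AB and 346 in AABB (log2 ratio −1.32). Elf5, the transcription factor of alveolar luminal cells, stood at 463 and 1085 (−1.23), at 725 in BB and at 66.9 in Null. Prlr, the prolactin receptor, stood at 14.9 and 28.3 (−0.89), and Jak2, its kinase, at 14.1 and 12.7 (0.15).
Among the feedback inhibitors, Cish stood at 26.5 in AB and 43.5 in AABB (−0.69), at 9.35 in BB and at 6.68 in Null. Socs2 stood at 13.2 and 9.66 (0.41). Socs3, the inhibitor most tied to STAT3, was higher, at 7.34 and 1.80 (1.58), as were Wnt4 (6.88 and 1.76) and Igf1 (10.1 and 3.76). Akt1, the survival kinase that STAT5 is known to regulate in this tissue, stood at 152 and 243 (−0.68).

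Of 30 cell cycle genes, Mki67 alone was called, at 4.82 in AB and 26.4 in AABB (log2 ratio −2.24), and the median was −0.19 (−0.04 without scaling). Top2a, another gene of dividing cells, stood at 7.78 and 9.52 (−0.26), Cdk1 at 4.75 and 7.18 (−0.51) and Aurkb at 2.70 and 1.40 (0.62). The other 29 genes thus lay within 2-fold while Mki67 did not. Among all compared genes 6.04% were lower and 10.5% higher, so the single call is not read as a result about the list.

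Of 73 compared cytosolic ribosomal protein genes (76 in the list), none was called, and the median was −0.30 (−0.07 without scaling). Rpl41, which encodes the smallest ribosomal protein, lay nearest to the limit, at 2334 in AB and 4663 in AABB (50.1% of wild type). Of 81 compared genes of the mitochondrial respiratory chain (84 in the list), 13 were lower and none higher, with a median of −0.69; without scaling 4 were lower, and after a lowess correction for GC content and transcript length 6 were. Ndufa1, a subunit of complex I, stood at 100.3 and 318 (−1.65), Ndufc2, also of complex I, at 136 and 384 (−1.50), and Cox7b, of cytochrome c oxidase, at 139 and 315 (−1.17). Among the 13 were also Cox6a2, of muscle, and Cox7a1, of muscle and brown fat.

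Among genes with characterised names, the 15 lowest ratios included genes of milk secretion and of fast muscle. St6galnac1, a sialyltransferase that caps O-linked sugars, was lowest, at 0.0344 in AB and 68.5 in AABB (log2 ratio −6.07), and it stood at 0.435 or less in BB, A, B and Null. Abcg2, the transporter that moves riboflavin and many drugs into milk, stood at 68.2 and 690.6 (−3.32) and at 91.6 in BB. Sftpd, the collectin surfactant protein D, stood at 69.4 and 718 (−3.35) and at 30.3 in BB. Each had an AB level under 10% of wild type.
Pcp4, a calmodulin-binding peptide, stood at 2.93 in AB and 57.0 in AABB. Fhad1 (0.210 and 14.2), Ppapdc1a (1.42 and 28.3) and Ccdc74a (1.28 and 24.9) were little studied genes among the 15. Csn1s2b and the fast muscle genes Tnnt3, Ckm, Tnnc2, Mylpf, Pvalb, Tnni2 and Myh4 made up the rest.

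The 15 highest ratios held secreted proteins, genes of acid-secreting cells, matrix and mast cell genes. Fcgbp, a mucin-like secreted protein, was highest, at 166 in AB and 3.64 in AABB (log2 ratio 5.17), 50.3 in BB and 276 in A. Chi3l1, a secreted chitinase-like glycoprotein of inflammation and tissue remodelling, stood at 328 and 10.3 (4.87). Igfbp5, a binding protein of insulin-like growth factors that is produced when the gland involutes, stood at 912 and 73.8 (3.61). All 3 were above their AABB level in BB, A, B and Null as well.
Atp6v1b1, a subunit of the plasma membrane proton pump, stood at 153 in AB and 6.76 in AABB (4.31). Foxi1, the transcription factor that drives proton pump genes in specialised acid-secreting cells of other organs, stood at 66.4 and 6.69 (3.13). Both were higher still in BB, at 274 and 89.5. Clic6 (36.9 and 1.47), Clca2 (218 and 21.1), Plb1 (16.4 and 0.437), Basp1 (56.0 and 5.22) and Anpep (123 and 13.8) also belonged to the 15.
Apod, a lipid carrier, stood at 198 in AB and 21.8 in AABB (3.13), and at 770.3 in BB. Kit, a receptor tyrosine kinase of luminal progenitors and of mast cells, stood at 60.1 and 6.30 (3.06). Fn1, Mcpt4 and Cpa3 are given with their cell types below.

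**Figure D3:**
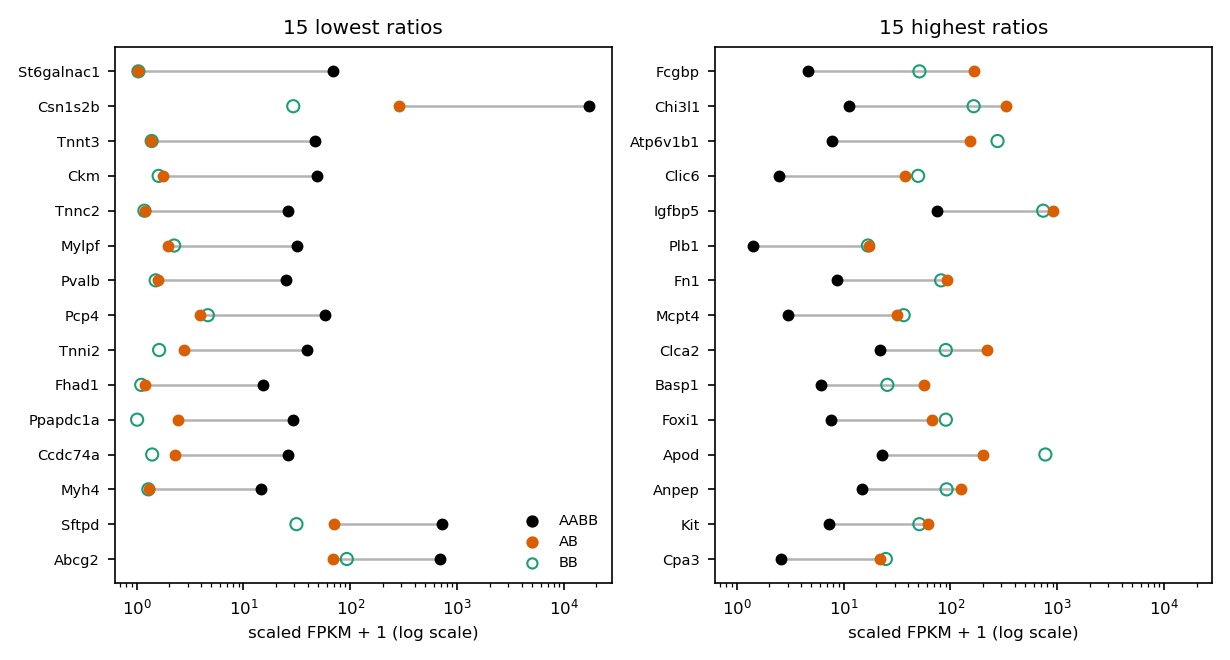
Scaled FPKM + 1 (log axis) of the 15 characterised genes with the lowest and the 15 with the highest log2 ratio of AB to AABB; filled black points are AABB, filled orange points AB, and open green circles BB, each a genotype mean. Csn1s2b at 283.6 in AB and 28.2 in BB and Apod at 198 in AB and 770.3 in BB are examples where AB and BB stood apart.

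Of the genes within 2-fold, the most abundant in AABB included Trf, Lalba, Rpl41, Eef1a1, Lcn2, Fth1, Mfge8, Rps12 and Fabp4. Lcn2, an iron-siderophore binder secreted in inflammation, stood at 3306 in AB and 4338 in AABB (log2 ratio −0.39). Eef1a1, a translation elongation factor, stood at 4915 and 4558 (0.11), and Fth1, the ferritin heavy chain, at 2287 and 3284 (−0.52).

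Epithelial markers were present in both genotypes and did not follow the milk genes downward as a group. Of 18 luminal markers, 5 were higher and 2 lower, with a median of 0.62 (8 higher and 1 lower without scaling). Krt8 stood at 419 in AB and 218 in AABB (log2 ratio 0.94), Krt18 at 476 and 286 (0.73), and Epcam, the epithelial adhesion molecule, at 246 and 199 (0.31). Krt8, Krt18 and Epcam thus lay within 2-fold, above the wild-type level.
Aldh1a3, a marker of luminal progenitors, stood at 20.2 in AB and 1.55 in AABB (3.05), which together with Kit gave the highest ratios of the list. Krt7 (32.9 and 10.2), Cldn3 (121 and 49.0) and Elf3 (21.1 and 8.12) were the other higher genes. The lower genes were Elf5 and Cd24a (325 and 977, −1.58), a surface glycoprotein high in alveolar cells.

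Of 10 compared markers of hormone-sensing epithelium (11 in the list), 5 were higher and none lower. The median was 0.97, and 1.05 without scaling; with a floor of 5 scaled FPKM, 2 of 4 were higher. Esr1, the oestrogen receptor, stood at 5.66 in AB and 4.79 in AABB (log2 ratio 0.20), Pgr, the progesterone receptor, at 1.32 and 0.404 (0.73), and Foxa1, the factor that opens oestrogen receptor sites, at 4.39 and 1.01 (1.43). Areg, the growth factor released under oestrogen, stood at 2.18 in AB and was listed at 0 in AABB. The levels of this list were low, with summed values of 64.9 in AB and 49.0 in AABB.
Of 14 basal and myoepithelial markers, 3 were higher (Cdh3, Actg2 and Lgals7), none was lower and all 14 had a ratio above 0 (median 0.67); without scaling 6 were higher. Acta2, the smooth muscle actin that contracts the alveolus, stood at 977 and 533 (0.87), and Krt14, a keratin of basal cells, at 83.7 and 78.7 (0.09). Oxtr, the oxytocin receptor that triggers milk ejection, stood at 59.2 and 39.8 (0.56).

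Of 12 tight junction genes, 2 were higher and 1 lower, with a median of 0.19. Over all genes 10.5% were higher and 6.04% lower, so these few calls lie near the general shares. Cldn8 stood at 51.1 in AB and 158 in AABB (log2 ratio −1.61), Cldn3 had a log2 ratio of 1.29, and Cldn1 stood at 18.4 and 8.32 (1.06). Tjp1, the scaffold protein ZO-1, stood at 28.9 and 17.6 (0.69).

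STAT3, a relative of STAT5, drives the involution of the gland after weaning. Of 16 genes of STAT3 signalling and involution, 8 were higher and none lower, with a median of 1.03; after the lowess correction, 7 were higher, 1 was lower and the median was 0.87. Igfbp5 led the list. Osmr, the receptor of oncostatin M, stood at 20.6 in AB and 4.27 in AABB (log2 ratio 2.04), Tgfb3, a growth factor of early involution, at 137 and 37.5 (1.85), and Mmp3, the matrix protease stromelysin, at 67.5 and 18.0 (1.85). Stat3 itself stood at 77.1 in AB, 202% of wild type and just within 2-fold on the log2 scale. Other involution genes stood near the wild-type level: Cebpd at 18.3 and 17.5 (0.06), Bcl3 at 18.1 and 17.4 (0.05), and the cathepsin Ctsb at 259 and 263 (−0.02). Il4ra stood at 16.9 and 29.2 (−0.76). At day 6 of pregnancy, 2 of the 16 were higher and the median was 0.06.

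Of 23 compared interferon response genes (24 in the list), 2 were higher and none lower, with a median of 0.21 (4 higher without scaling). Over all genes 10.5% were higher and 6.04% lower, so the list did not stand out by its count of higher genes. The 2 were Oasl2 (9.97 in AB and 3.62 in AABB) and Ifit2 (4.87 and 1.89).

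Fibroblast and matrix genes of the stroma were higher in AB throughout. All 17 had log2 ratios between 1.46 and 3.41, with a median of 2.24. Fn1, which encodes fibronectin, stood at 92.3 in AB and 7.78 in AABB (3.41). Col1a1, a chain of type I collagen, stood at 324 and 39.0 (3.02), and Col3a1, type III collagen, at 883 and 136 (2.69). Sparc, a matrix-binding protein, had the smallest ratio, at 1036 and 375 (1.46). The levels in BB and in the 3 other genotypes were also above AABB, for example 878 in BB, 384 in A, 556 in B and 667 in Null for Col3a1. At day 6 of pregnancy all 17 were likewise higher in AB, with a median of 2.29.

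Of 12 endothelial markers, 8 were higher and none lower (median 1.07), and all 12 had a ratio above 0; after the lowess correction 5 were higher (median 0.99). Cdh5, the cadherin of endothelial junctions, stood at 63.3 in AB and 22.6 in AABB (log2 ratio 1.45), and Pecam1, an endothelial adhesion molecule, at 54.3 and 24.9 (1.09). Of 13 macrophage markers, 10 were higher and none lower (median 1.47). Mrc1, the mannose receptor, stood at 20.4 and 2.85 (2.47), Csf1r, the growth factor receptor of macrophages, at 35.3 and 6.85 (2.21), and Cd68, a lysosomal glycoprotein, had a log2 ratio of 1.92.
Of 7 MHC class II genes, 4 were higher and none lower (median 1.02; 2 higher and a median of 0.96 after the lowess correction), led by Cd74, the invariant chain, at 375 and 131 (1.51). In the 6 compared mast cell markers (7 in the list), 5 were higher (median 2.82): Mcpt4, a mast cell protease, stood at 31.0 and 2.05 (3.39) and Cpa3, a carboxypeptidase, at 20.8 and 1.63 (3.05). Ms4a2, a chain of the IgE receptor that defines mast cells, stood under 1 in both genotypes, at 0.169 and 0.117.

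Most lymphocyte markers were too low to be compared, and no lymphocyte, nerve or red cell marker was called. Of 11 T cell markers 4 were compared and none was called, with levels up to 1.59 in AB and 1.37 in AABB. Of 11 B and plasma cell markers 4 were compared and none was called; Igj (named Jchain in current RefSeq) stood at 20.3 and 20.4. Of 8 nerve and Schwann cell markers 5 were compared and none was called, with summed levels of 143 in AB and 153 in AABB. Of 8 neutrophil markers 5 were compared: Mmp9 was higher (5.85 and 0.416) and S100a9 lower (1.22 and 3.52). Of 5 red cell markers, only Alas2 was compared, at 3.80 in AB and 5.19 in AABB (log2 ratio −0.37). The globin genes Hba-a1, Hba-a2, Hbb-b1 and Hbb-b2 were listed at 0 in all 6 parturition columns. These zeros are not read as a sign of few red cells.

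All 15 white adipocyte markers had ratios above 0, 9 were higher and the median was 1.09. Pck1, which encodes phosphoenolpyruvate carboxykinase, stood at 134 in AB and 27.3 in AABB (log2 ratio 2.26). Plin1, the coat protein of fat cell droplets, stood at 98.4 and 21.7 (2.13) and Lep, leptin, at 27.7 and 8.69 (1.56), whereas Adipoq, adiponectin, stood at 401 and 205 (0.96) and Fabp4 at 3488 and 2416 (0.53). Of 6 compared brown adipocyte markers (8 in the list), 4 were lower, including Cidea and Ucp1, the uncoupling protein (3.70 and 11.8, −1.44). The median of −1.15 moved inside 2-fold without scaling (−0.95). Cox7a1 (−1.22) and Elovl3 (−1.08) were the other lower genes, and Cox8b (0.09) and Otop1 (−0.89) lay within 2-fold. Cidea is also a lipid droplet gene and Cox7a1 also a gene of muscle, so the list is not read as a measure of brown fat alone.

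Skeletal muscle markers were the list with the lowest median, −3.15, with 13 of 14 compared genes lower (17 in the list). Ckm, muscle creatine kinase, stood at 0.780 in AB and 47.8 in AABB (log2 ratio −4.78), and Acta1, skeletal muscle actin, at 4.63 and 38.1 (−2.79). Their summed level was 19.6 in AB and 312 in AABB, beside 22.4 in BB, 2799.9 in A, 2653 in B and 4449.7 in Null. AB and BB therefore had the lowest summed muscle levels of the 6 columns. In the day 6 table the order of AB and AABB was the reverse, with sums of 8288 and 175 and a median of 5.36. The muscle list thus differed between AB and AABB in opposite directions at the 2 stages.

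**Figure D4:**
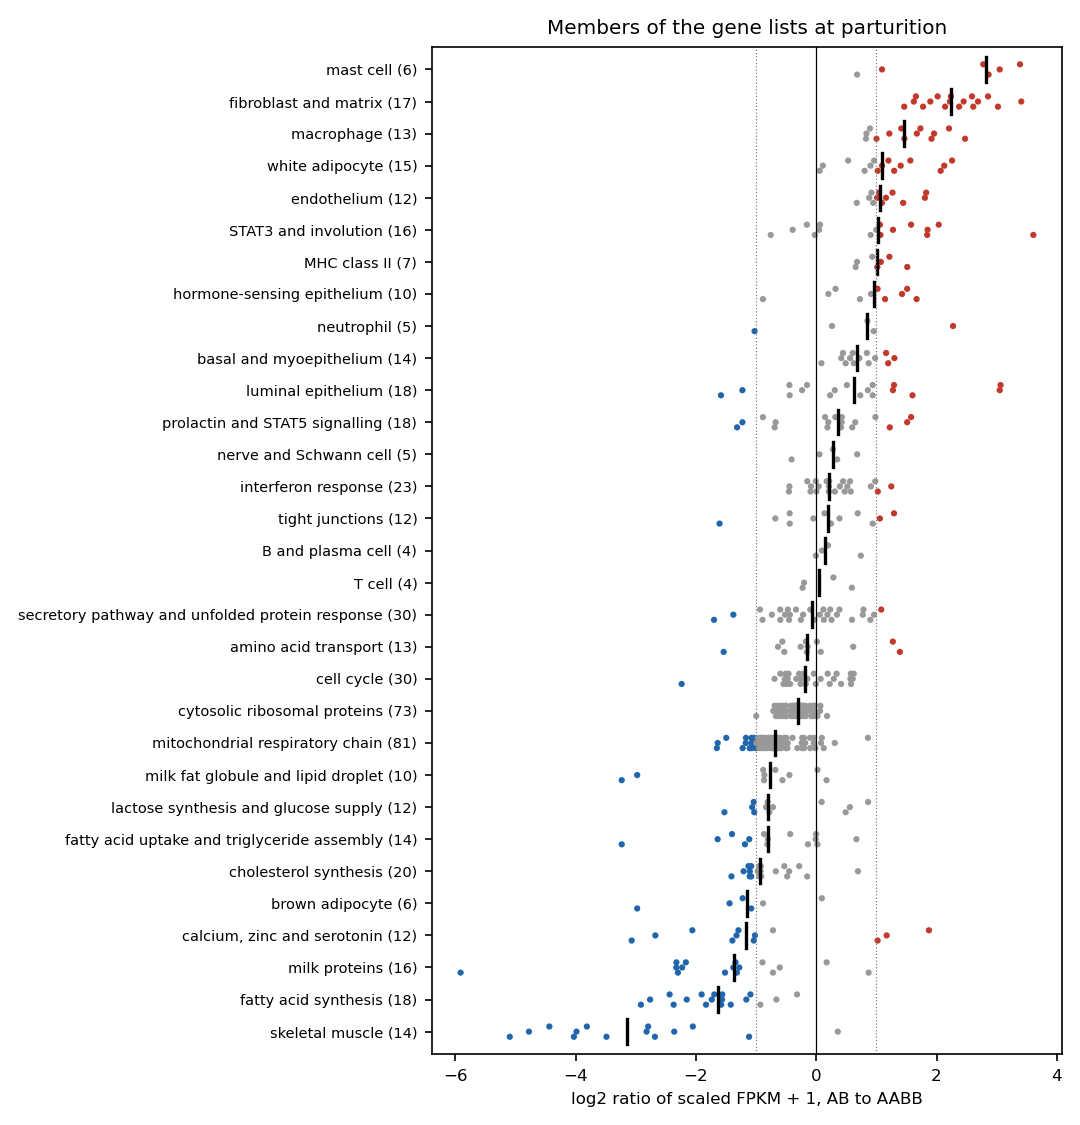
Log2 ratio of scaled FPKM + 1, AB to AABB, of each compared member of the lists with 3 or more compared genes, ordered by the median (black bar), with the number compared in brackets; red and blue points are at least 2-fold higher and lower, and dotted lines mark 2-fold. All 17 fibroblast and matrix points lie to the right of 1, and 13 of 14 skeletal muscle points lie to the left of −1.

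AB and BB both carry 2 functional alleles but differ in which gene supplies them, and each was set against the same AABB column, so their ratios share it. BB had 1065 of 12655 genes higher than AABB (8.42%) and 762 lower (6.02%). Compared directly, AB was at least 2-fold above BB in 143 of 12537 genes (1.14%) and below it in 98 (0.782%). Of the 768 genes lower in AB than in AABB, 722 lay within 2-fold of BB, 18 were above it and 28 below it. Of the 1337 higher genes, 1269 lay within 2-fold of BB, 59 were above it and 9 below it.

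AB and BB were ranked over genes with an established symbol that were called between AB and AABB and passed a level limit. Genes within 2-fold of AABB in AB were left out. Of those higher in AB than in BB, the largest log2 ratios of AB to BB included Csn1s2b (3.28), Ubd (2.46) and Stat5a (2.17). AB carries Stat5a and BB lacks it. Ubd, a ubiquitin-like modifier induced by inflammatory cytokines, stood at 17.5 in AB, 2.37 in BB and 2.11 in AABB. Its level was 19.5 in B and 12.2 in A. Ctgf, a matrix-associated growth factor (45.6, 12.5 and 13.5 in AB, BB and AABB), was also higher in AB than in BB and AABB. The same held for Nfkb2, a subunit of the NF-κB transcription factor (27.1, 8.03 and 9.08). For these 3 genes AABB lay nearer to BB than to AB, an order favoured by the choice of genes far from AABB in AB.
In the other direction, Duoxa1, the maturation factor of a dual oxidase, stood at 14.5 in AB, 79.7 in BB and 54.5 in AABB. Ucp1 stood at 3.70, 21.6 and 11.8, and Atp13a4, a membrane cation transporter, at 6.76, 36.2 and 27.2. Gsta3, a glutathione transferase, stood at 7.43, 35.8 and 22.7.

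Among all 6 genotypes at parturition, 160 of the 768 lower genes had their lowest level in AB, below Null, B, A and BB. Of the 1337 higher genes, 177 had their highest level in AB. Both sets were chosen on the AB level, and the share over all compared genes was not calculated. The counts are therefore not read as a trait of AB. Among the fatty acid synthesis genes, Thrsp was at 549.7 in AB, 855 in BB, 1014 in A, 822 in B and 1865 in Null. In contrast, Csn2 in AB lay near BB (110456) and far above A (7706), B (2698) and Null (504). The list medians in Null, B and A were further below AABB than those in AB for milk proteins (−8.92, −6.39 and −5.26 against −1.36) whereas for fatty acid synthesis the Null median was nearer to AABB and those of B and A were somewhat further below it (−1.02, −1.89 and −1.88 against −1.64).

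**Figure D5:**
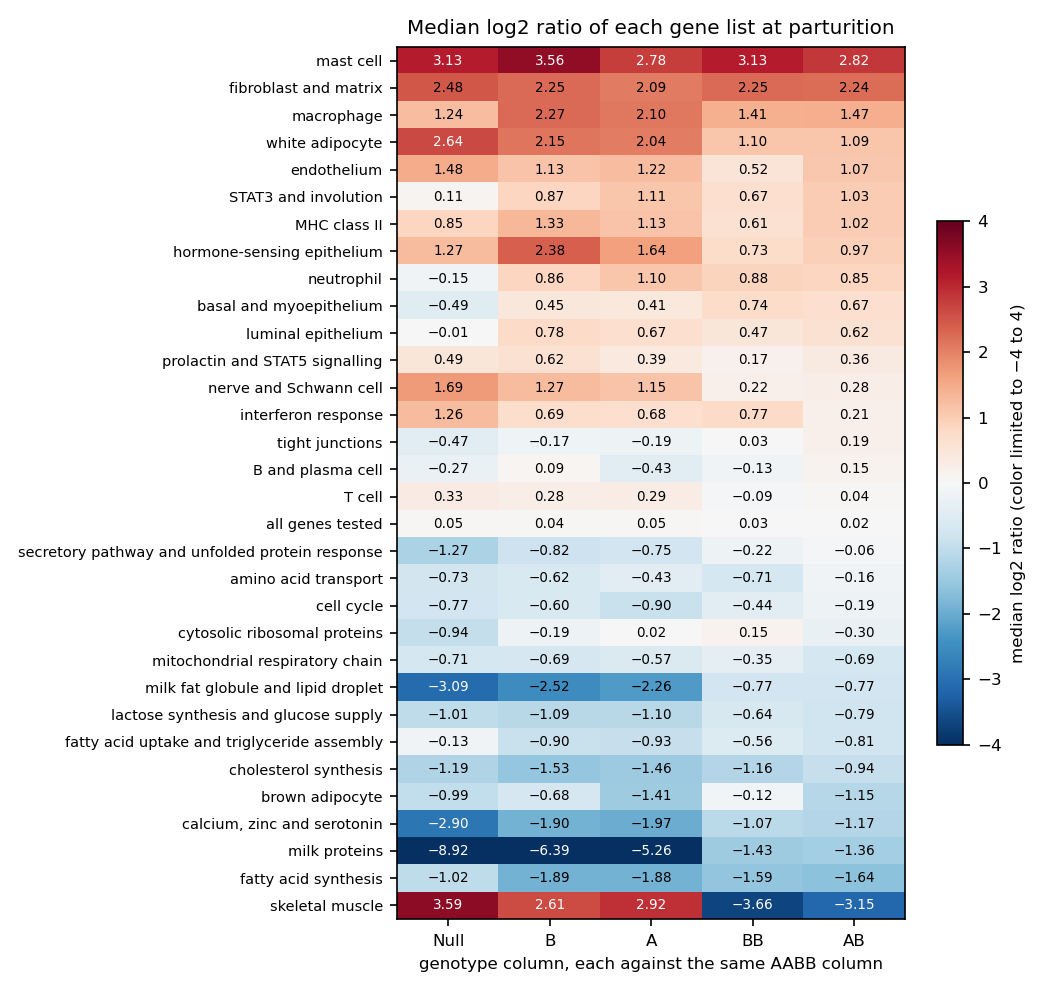
Median log2 ratio of scaled FPKM + 1 to the shared AABB column for each gene list (vertical) in Null, B, A, BB and AB (horizontal), with the value in each cell and color limited to −4 to 4. AB and BB show like medians for milk proteins (−1.36 and −1.43) and fibroblast and matrix genes (2.24 and 2.25), and skeletal muscle is negative in AB and BB alone (−3.15 and −3.66). Medians lay further apart in AB and BB for other lists, among them brown adipocyte (−1.15 and −0.12), interferon response (0.21 and 0.77), endothelium (1.07 and 0.52) and amino acid transport (−0.16 and −0.71).

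At day 6 of pregnancy, before milk secretion begins, AB had 1008 of 13254 genes higher than AABB (7.61%) and 709 lower (5.35%). Of the 768 genes lower at parturition, 188 were also at least 2-fold lower at day 6, 532 lay within 2-fold and 48 were higher. Of the 1337 higher genes, 429 were also higher at day 6, 871 lay within 2-fold and 37 were lower. All but 1 of the 16 milk protein genes were lower at day 6 (median −2.74), at far lower levels: Csn2 stood at 1.96 in AB and 2959 in AABB, and Wap was listed at 0 in AB and stood at 14.0 in AABB. The luminal markers differed in sign between the stages, with a median of −0.99 at day 6 and 0.62 at parturition, and this difference was not tested.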

How the data were processed

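Poly(A) RNA of mouse mammary tissue, extracted with TRIzol, was sequenced as TruSeq libraries on a HiSeq instrument, per the labels' protocols. Base calling used CASAVA and alignment used TopHat to mm9, per the submitters' processing notes. The program and annotation behind the FPKM values and any filter are not given in the sources used here. The deposited FPKM values form 2 tables, parturition and day 6 of pregnancy, of 22609 genes and 6 columns, each the authors' mean of a genotype. Stages were kept apart.

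Columns of a table were divided by median-ratio factors over genes at 1 FPKM or more in all 6 columns (10864 genes at parturition; factors 0.933 for AB and 0.794 for AABB, whose deposited FPKM sums were 703160 and 1190590). Ratios are log2(scaled FPKM + 1), for genes at 1 or more in either column, called at 2-fold or 4-fold. The limma test, the fits that leave out a sample and the replicate block named in the plan need a value per sample and were not run. How far a ratio could vary between mice is therefore unknown.

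The members and the 32 gene lists were chosen with earlier results of these data known. Of 592 list members 592 matched, 6 of them through a RefSeq synonym. Named genes were Stat5a and Stat5b; the 15 lowest and 15 highest ratios, and the 10 highest AABB levels within 2-fold, of genes with an established symbol; and in each list up to 8 members with the largest ratios plus members within 2-fold that define the list. The genes listed for AB against BB, and those described for all 6 genotypes, were chosen after their values were seen. Promoter letters came from RefSeq (GRCm38.p6) by symbol, and transcript length and GC content from GENCODE M21 for 22210 genes (98.2%). No coordinates were carried over to mm9. The alternatives were a pseudocount of 0.1, no floor, a floor of 5, no scaling, 2 other scalings and removal of the length and GC trend. The calculation was run on simulated data, copies of the AABB column with small noise and a small set of genes moved 4-fold. The simulated columns differed in far fewer genes than AB and AABB, so that run does not bear on the choice of scaling. Calculations ran in Python 3.11.15 with pandas 2.3.3 and numpy 2.4.6; lowess came from statsmodels 0.14.6 and figures from matplotlib 3.10.9. Some genes selected this way are not reported here.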

Additional observations from a re-analysis of the deposited data

How the results depend on the processing

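No paired analysis was possible because the tables hold a mean per genotype and no value per sample; for the same reason no sample could be left out. The 1337 higher and 768 lower genes became 1992 and 1079 with a pseudocount of 0.1, 992 and 632 with a floor of 5 scaled FPKM, 1278 and 692 with scaling over AB and AABB alone, and 1157 and 672 after the lowess correction for GC content and length (1038 and 556 shared with the counts given first). Without a floor they stayed 1337 and 768. The count of lower genes was 479 without scaling and 484 with scaling to the FPKM sum without milk protein genes, beside 1773 and 1908 higher genes; these scalings shift the median of all genes by 0.203 and 0.224. No value of a list or named gene that had been called changed sign. Of 31 list medians, those that crossed 2-fold were hormone-sensing epithelium and neutrophil (pseudocount 0.1), brown adipocyte (no floor), STAT3 and involution (floor of 5), calcium, zinc and serotonin, hormone-sensing epithelium and brown adipocyte (both scalings), and STAT3 and involution, MHC class II, endothelium and neutrophil (lowess correction); the cause was not tested. Of up to 556 list and named genes, 14, 0, 0, 56, 7, 58 and 38 crossed 2-fold under pseudocount 0.1, no floor, a floor of 5, no scaling, scaling over AB and AABB, scaling without milk genes and the lowess correction. Depth is unknown, so counting error of low genes was not assessed.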

Other observations

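The lowest ratio of all compared genes belonged to BC018473, a long noncoding RNA outside the rule for named genes and chosen here after its value was seen. It stood at 0.112 scaled FPKM in AB and 493 in AABB (log2 ratio −8.79), at 0.0994 in BB, 0.0698 in A, 0.0222 in B and 16.1 in Null. In RefSeq it lies next to St6galnac1, the lowest of the characterised genes (0.0344 and 68.5). St6galnac2, a related sialyltransferase nearby, stood at 27.5 in AB and 141 in AABB (−2.32). Other neighbours differed in both directions, Jmjd6 at 13.7 and 29.2 (−1.03) and Mxra7 at 10.8 and 3.09 (1.52). At day 6 of pregnancy BC018473 stood at 0.00817 and 119.9 and St6galnac1 at 0.00791 and 12.7.

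Of 3 nuclear long noncoding RNAs chosen after their values were seen, Malat1 stood at 78.5 in AB and 462 in AABB (log2 ratio −2.54), Neat1 at 39.9 and 148 (−1.87) and Xist at 8.42 and 45.4 (−2.30). All 3 were below the AABB level in BB (144, 38.8 and 15.2), A and B as well, so the difference is not particular to AB. In Null, Malat1 stood at 69.2, Neat1 at 254 and Xist at 36.6. Messenger RNAs of common reference genes lay within 2-fold in AB and AABB, Gapdh at 142 and 184, Tbp at 8.89 and 10.9 and Hprt at 43.0 and 46.9. Actb stood at 903 and 565 and Ppia at 1047 and 1599. The cause of these differences was not tested.

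Some abundant genes carried exactly the same deposited FPKM as another gene of their column. At parturition this held for 10 of 48 genes at 1000 FPKM or more in AB and 4 of 56 in AABB, and at day 6 of pregnancy for 0 genes. The pairs included Expi with Fabp3 (11627) in AABB and, in AB, Fabp3 with Rpl10, Cfd with Rps4x, Rplp0 with Rps15 and Hspa8 with Rpl7a. The cause was not tested.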
